A study of Mus musculus with 8 samples.

Results

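The genes described here encode the machinery that carries proteins made in the cytosol into the mitochondrion. They were taken as every gene of the count table whose symbol starts with Timm or Tomm, together with Pam16, Dnajc15, Dnajc19, Grpel1, Grpel2, Hspa9, Samm50, Mtx1, Mtx2, Mtx3, Pmpca, Pmpcb, Chchd4 and Gfer, which gave 36 of the 26586 genes in the table. The study supplemented mouse oocytes with mitochondria at fertilisation and followed the offspring over generations. The RNA analysed came from the primordial follicles of females aged 3 days. The samples were 4 mito-supplemented libraries from the third generation and 4 control libraries from colony mice.

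The labels give the strain of both groups as C57Bl/6 x CBA. Mito-supplemented samples descended from founders that were produced by intracytoplasmic sperm injection together with mitochondria isolated from egg precursor cells of the same strain, whereas the control samples came from naturally mated colony females. The founders also came from superovulated oocytes, and their embryos were cultured, vitrified and transferred to recipient females. Supplementation therefore cannot be told apart from injection or these other steps in this comparison. Each sample was a pool of follicles taken with stripper tips from enzyme-digested ovary, and its RNA was amplified before sequencing. The labels call the samples biological replicates, and the study left out 1 further control library as an outlier, which was not analysed here. The label codes of control replicates 1 and 2, of control replicates 3 and 4, and of mito-supplemented replicates 1 to 3 share their first part, and what that part stands for is not given in the sources used here. The p values therefore measure spread between these samples, whether or not they came from separate litters.

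Almost all mitochondrial proteins are encoded in the nucleus and enter through the TOM complex of the outer membrane. From there, proteins with a presequence pass the TIM23 channel and are pulled into the matrix by the motor around the chaperone mortalin, where a peptidase removes the presequence. Carrier proteins are led by small TIM chaperones to the TIM22 complex, barrel proteins are inserted by the SAM complex, and small cysteine-rich proteins are trapped in the intermembrane space by oxidative folding. Oocytes are rich in mitochondria, which the egg passes on to the embryo.

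Library totals ran 17658559, 13917412, 18219362 and 10370045 counts in control order and 19760763, 13370911, 16116434 and 13276462 counts in mito-supplemented order, each from replicate 1 to replicate 4. The rRNA genes listed as Rnr1, Rnr2, Rn45s and Rn18s took 75.3% of the counts in control replicate 4 and from 20.2% to 45.6% in the other 7 libraries, so that 2559876 counts remained outside them in control replicate 4 and at least 7280214 elsewhere. The import genes together had 24780, 8519, 11394 and 3679 counts across the controls, against 13500, 9567, 15423 and 9829 across the mito-supplemented samples, in replicate order. Low values in control replicate 4 thus rest on the fewest counts. Levels below are CPM, counts scaled to library size, with TMM normalization, which corrects for the make-up of each library. The TMM factor was 0.489 in control replicate 4 and from 0.909 to 1.39 in the other libraries. A small factor raises the CPM of a library, so that high values in control replicate 4 rest in part on this scaling.

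The follicle label was compared with marker genes, since primordial follicles hold an oocyte with its pregranulosa cells. All 12 oocyte markers were in the table, with Kit the most abundant, and 11 of them passed the filter on low counts. Their summed level was 2040 CPM in control replicate 1 and 155, 97.1 and 390 CPM in control replicates 2 to 4, against 229, 120, 448 and 76.1 CPM across mito-supplemented replicates 1 to 4. Control replicate 1 thus stood far above every other library, and Oosp1 was at 0 in 6 of the 8 libraries. The 6 red cell markers in the table, led by Slc4a1, summed to 3905 and 2492 CPM in control replicates 2 and 3 and to 4873 CPM in mito-supplemented replicate 1, against 23.8 to 79.6 CPM in the other 5 libraries. Hba-a1 was at 0 in all of these libraries but mito-supplemented replicate 1. In bulk samples, fewer cells of a type and less RNA per cell cannot be told apart.

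No import gene was called as different between the groups in the main test. In data simulated with the dispersion estimated from these libraries, 6.32% of 95 genes given a 4-fold change were called. A count of 0 calls therefore does not show that no gene changed. With the quasi-likelihood test of edgeR, adjusted over all genes by Benjamini-Hochberg, 0 of the 35 import genes tested had an adjusted p value under 0.05, as had 0 of the 13873 genes tested (0%), and the lowest adjusted p value of an import gene was 0.636. Without adjustment, a p value under 0.05 was reached by 2 import genes, Timm13 and Mtx1, both lower in mito-supplemented samples, where 2.4% of all genes tested were lower at that threshold, and 0 import genes were higher, where 5.31% of all genes were. The likelihood ratio test called 58 genes (0.418%) and DESeq2 141 (1.02%), with 0 import genes in either. Those tools gave 3 (8.57%) and 5 (14.3%) import genes at the unadjusted threshold, all lower, where 3.01% and 4.21% of all genes were lower. With limma-voom and sample quality weights 2 import genes, Dnajc15 and Timm13, were called (5.71%), where 2913 of all genes were (21%). The unadjusted count of 2 import genes (5.71%, against 7.71% of all genes in either direction) depended on single libraries. It went to 3 when control replicate 1 was dropped (7.67% of all genes), to 1 each for control replicates 2 (5.55%) and 4 (12.6%) and mito-supplemented replicate 1 (14.1%), and to 0 each for mito-supplemented replicates 2 (3.95%), 3 (5.53%) and 4 (4.34%). The genes also differed, as Timm8a2 alone passed without control replicate 2, Samm50 alone without control replicate 4, and Timm17b and Samm50 without control replicate 3. With counts summed by label code, 0 import genes passed, where 7.5% of all genes did, so that Timm13 and Mtx1 were both lost.

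Of the 35 import genes tested, 24 had a log2 fold change below 0 and 11 above 0, and 29 lay within 1 of 0. The median was -0.19, against -0.10 over all genes tested. With library size in place of TMM the median of all genes moved to 0.17 and that of the import genes to 0.03, so that the import genes lay 0.14 below all genes in place of 0.09. Library size alone also changed the split of all genes at an unadjusted p value under 0.05 from 736 higher and 333 lower to 1288 and 53, and an offset for GC content and length, chosen after seeing the data, changed it to 593 and 550. With that offset the median was -0.11 for import genes and -0.16 for all genes, so that the import genes lay above. The medians of import genes and of all genes were both 0.04 without control replicate 1. The number of import genes with a fold change below 0 was 17 with library size only and 16 without control replicate 1.

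**Figure D1:**
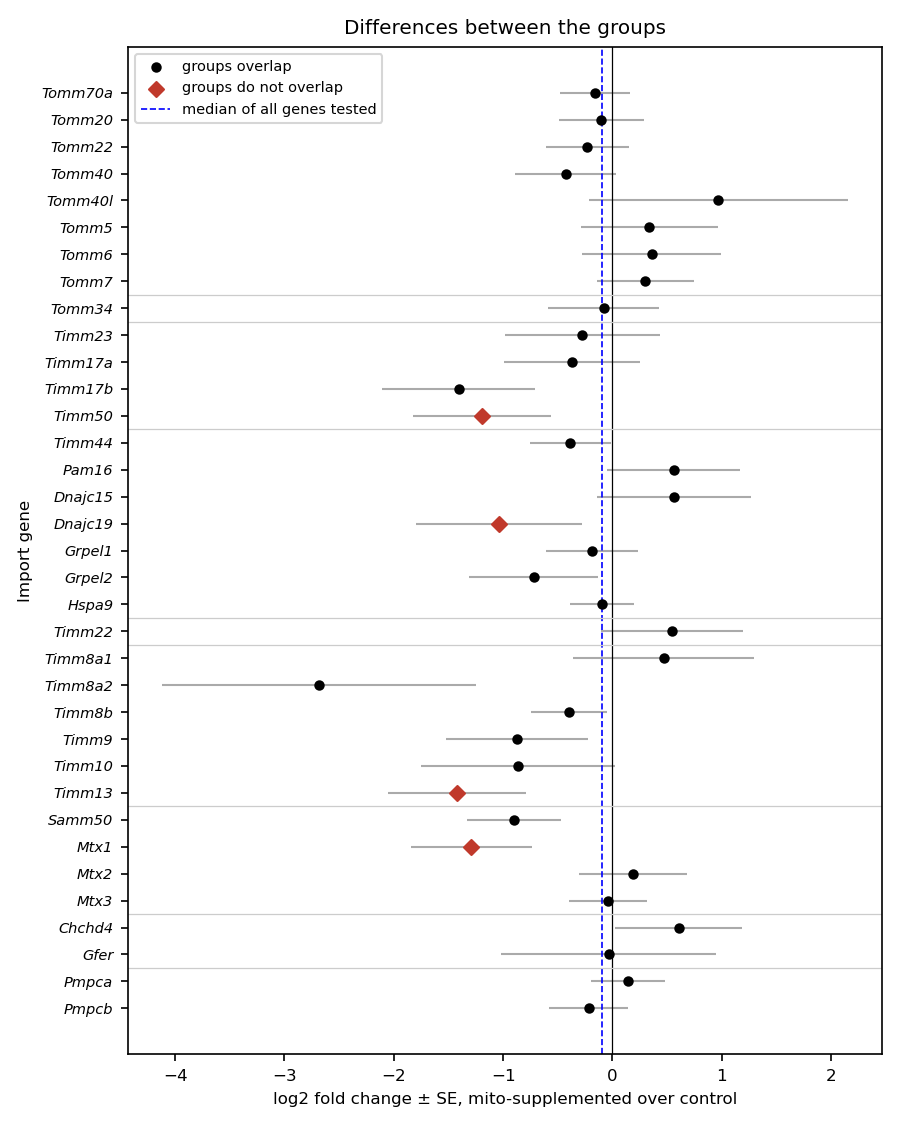
Log2 fold change of each import gene tested, mito-supplemented over control, with bars of 1 SE (n = 4 libraries in each group), ordered by role and parted by grey lines. The 4 diamonds are the genes whose groups do not overlap, and all 4 lie below the dashed median of all genes.

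The groups did not overlap for 4 of the 35 import genes tested, Timm13, Mtx1, Timm50 and Dnajc19, each lower in mito-supplemented samples. Over all genes tested, 2.03% did not overlap and were lower and 3% did not overlap and were higher. The count was 4 with size factors from RLE (2.18% of all genes lower) and with TMM after the rRNA genes were taken out (1.8%), and 1, Timm13, with library size only (0.202%). These 4 genes act at different places, in the small TIM chaperones, the outer membrane, the TIM23 channel and the motor, and they lie on chromosomes 10, 3, 7 and 3.

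**Figure D2:**
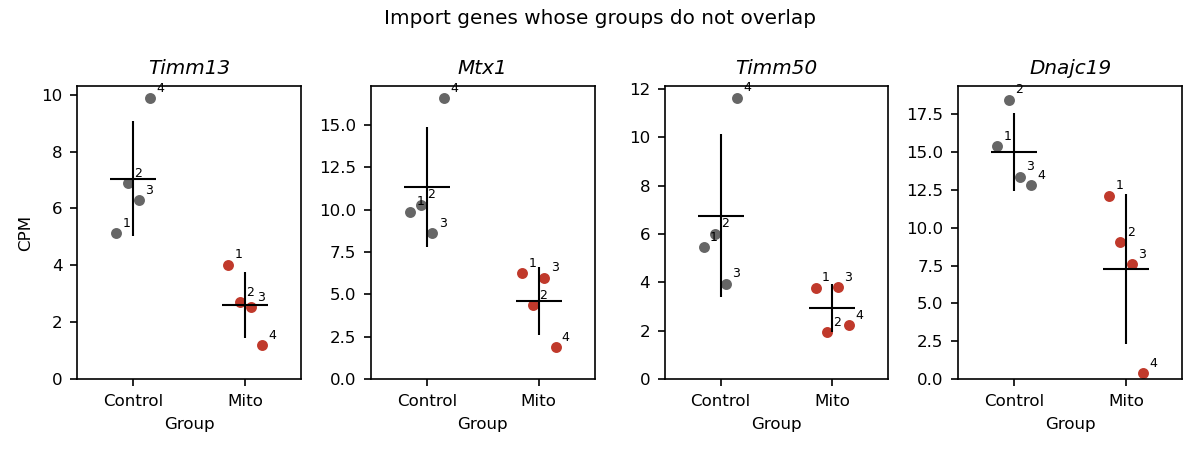
CPM of Timm13, Mtx1, Timm50 and Dnajc19 in each library (points, numbered by replicate), with the mean (horizontal line) and SD (vertical line, n = 4). Every mito-supplemented library lies below every control library, and mito-supplemented replicate 4 is lowest for 3 of the genes.

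Timm13 (chromosome 10 of GRCm38, 80899450 to 80900969), whose product forms with Timm8 proteins a chaperone of the intermembrane space, had 5.13, 6.90, 6.29 and 9.87 CPM across control replicates 1 to 4, against 4.03, 2.70, 2.54 and 1.18 CPM across mito-supplemented replicates 1 to 4. Control replicate 4 was highest and mito-supplemented replicate 4 lowest, at 17 counts, and the nearest libraries of the groups were control replicate 1 and mito-supplemented replicate 1. The control mean was 7.05 ± 2.02 CPM and the mito-supplemented mean 2.61 ± 1.16 CPM (± SD, n = 4). The log2 fold change was -1.42 ± 0.63 (SE), with an unadjusted p value of 0.0468 and an adjusted p value of 0.643 in edgeR's quasi-likelihood test. With limma-voom and sample quality weights its adjusted p value was 0.0446, and among the 20 alternatives such values ran from 0.0446 to 0.971. Its exons overlap those of Tmprss9 on the opposite strand by 43 bases.

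Mtx1 (chromosome 3, 89209081 to 89227088) encodes metaxin 1, an outer membrane partner of the SAM complex. It had 9.89, 10.3, 8.64 and 16.6 CPM across control replicates 1 to 4, against 6.26, 4.36, 5.99 and 1.88 CPM across mito-supplemented replicates 1 to 4. Control replicate 4 and mito-supplemented replicate 4 again lay at the ends, and the other libraries of each group lay close together. Its log2 fold change was -1.29 ± 0.56 (SE), with an unadjusted p value of 0.0426 and an adjusted p value of 0.636 in edgeR's quasi-likelihood test. Of the 75-base stretches of its transcripts, 17.5% also occur in Thbs3 or Gm43737, so that its counts are uncertain.

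Timm50 (chromosome 7, 28305516 to 28312072), the presequence receptor of the TIM23 channel, had 5.46, 6.03, 3.95 and 11.6 CPM across control replicates 1 to 4, against 3.78, 1.94, 3.81 and 2.22 CPM across mito-supplemented replicates 1 to 4. The groups came close, as control replicate 3 was only just above mito-supplemented replicates 1 and 3. With a log2 fold change of -1.19 ± 0.63 (SE), edgeR's quasi-likelihood test gave an adjusted p value of 0.672, and the fold change was -0.78 without control replicate 4, -0.72 with library size only and -0.66 with limma-voom and sample quality weights.

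Dnajc19 (chromosome 3, 34056020 to 34081321), a J-protein that stimulates mortalin, had 15.4, 18.5, 13.4 and 12.8 CPM across control replicates 1 to 4, against 12.1, 9.07, 7.58 and 0.417 CPM across mito-supplemented replicates 1 to 4. The level of mito-supplemented replicate 4 rested on 6 counts and lay far below the rest of its group, while mito-supplemented replicate 1 was next to control replicate 4. With a log2 fold change of -1.04 ± 0.76 (SE), edgeR's quasi-likelihood test gave an adjusted p value of 0.734, and without mito-supplemented replicate 4 the fold change was -0.62. Its exons overlap those of Fxr1 on the opposite strand by 178 bases.

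Marker lists also differed between these libraries. All 8 surface epithelium markers, led by Upk3b, had a fold change above 0, with 5 higher at an unadjusted p value under 0.05, where 5.31% of all genes were, and they summed to 78.1, 39.3, 29.97 and 298 CPM across control replicates 1 to 4, against 254, 698, 277 and 589 CPM across mito-supplemented replicates 1 to 4. All 10 immediate-early genes, led by Egr1, which are transcribed rapidly when cells are stimulated, had a fold change above 0, with 7 at that threshold, and they summed to 203, 518, 479 and 301 CPM across controls, against 677, 1208, 1584 and 2980 CPM across mito-supplemented samples, so that the groups did not overlap. Of the 8 pregranulosa markers, led by Wt1, 7 had a fold change above 0, with 3 higher at that threshold, and their sums were 235, 181, 253 and 771 CPM across controls, against 432, 1047, 701 and 1159 CPM across mito-supplemented samples. The part of these lists in the differences of the import genes was not tested.

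The remaining lists varied widely within the groups. Stroma markers, led by Col3a1, had 8 of 8 fold changes above 0 and summed to between 336 and 2199 CPM across controls, against between 949 and 2480 CPM across mito-supplemented samples. Endothelial markers, led by Kdr, had 5 of 6 above 0, with 1 higher at an unadjusted p value under 0.05. They summed to between 25.6 and 212 CPM across controls and between 94.9 and 225 CPM across mito-supplemented samples. Smooth muscle markers, led by Myh11, had 5 of 5 above 0 and summed to between 21.2 and 226 CPM and between 43.6 and 324 CPM. The table held 7 immune markers, of which 4 were tested, and their sum was 722 CPM in mito-supplemented replicate 1, mostly from Lyz2, and between 7.51 and 129 CPM elsewhere, with C1qb at 0 in all libraries. The oocyte markers tested had 0 of 11 fold changes above 0 and the red cell markers 0 of 4. The median of the oocyte markers was -1.80, with 1 lower at the same unadjusted threshold. Their sum was 2040 CPM in control replicate 1 and between 97.1 and 390 CPM in the other controls. Across mito-supplemented samples it lay between 76.1 and 448 CPM.

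In the TOM complex, levels per exon length were compared, with CPM divided by the length in kb of the GENCODE M21 basic exons, since the annotation the authors used is not given in the sources used here. Tomm22, the central receptor, had the highest mean, 19.4 CPM per kb, and Tomm20l the lowest, 0.0854 CPM per kb. Tomm22 had 50.3, 28.5, 39.1 and 20.5 CPM across control replicates 1 to 4, against 37.0, 21.6, 30.8 and 28.9 CPM across mito-supplemented replicates 1 to 4. The groups overlapped, with control replicates 1 and 4 at both ends. Its log2 fold change of -0.23 ± 0.38 (SE) was smaller than its error. Dropping control replicate 1 gave 0.030, dropping control replicate 4 gave -0.39 and dropping mito-supplemented replicate 2 gave -0.10.

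Tomm70a and Tomm7 were among the 3 steadiest import genes. Tomm70a, the receptor for carrier proteins, had 69.0, 55.7, 66.8 and 38.1 CPM across control replicates 1 to 4, against 56.6, 43.9, 60.2 and 45.3 CPM across mito-supplemented replicates 1 to 4, with an SD of 0.31 in log2 CPM over the 8 libraries. Tomm7, a small subunit, had 9.02, 8.32, 7.26 and 6.71 CPM across controls, against 9.995, 8.10, 8.17 and 12.4 CPM across mito-supplemented samples, with an SD of 0.27. Both genes overlapped between the groups, and neither spanned a log2 unit between its lowest and highest library. Tomm5 and Tomm6 lay between 2.56 and 14.4 CPM, and 67.1% of the 75-base stretches of Tomm6 also occur in Usp49, Gm21981 or Tomm6os. Tomm34, a cytosolic co-chaperone of import, had 38.8, 14.3, 14.5 and 20.9 CPM across controls, against 21.1, 29.99, 24.6 and 8.13 CPM across mito-supplemented samples. Control replicate 1 was highest and mito-supplemented replicate 4 lowest for it, and its log2 fold change of -0.08 ± 0.51 (SE) had the other sign with library size only (0.092) and when control replicate 1 (0.36) or mito-supplemented replicate 4 (0.23) was dropped.

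The TOM complex held pairs of related genes with very unequal levels. Tomm40, the channel itself, had 10.6, 10.5, 6.98 and 12.6 CPM across control replicates 1 to 4, against 10.04, 7.06, 5.94 and 7.23 CPM across mito-supplemented replicates 1 to 4. Its exons overlap those of Gm20512 on the opposite strand by 258 bases. Its relative Tomm40l had 0.492, 3.49, 2.80 and 0.197 CPM across controls, against 2.23, 8.24, 3.22 and 0.139 CPM across mito-supplemented samples, where the lowest value was 2 counts. Tomm40l was thus near 0 in control replicates 1 and 4 and mito-supplemented replicate 4, and its SD of 1.83 in log2 CPM was among the 3 largest. Per kb, Tomm40l reached between 0.00552 and 0.412 of the level of Tomm40. Its log2 fold change was 0.97 ± 1.19 (SE), and 52% of its 75-base stretches also occur in Nr1i3, whose exons overlap it on the opposite strand. The fold change was 0.092 without mito-supplemented replicate 2, 0.63 without control replicate 4 and 1.53 without control replicate 2. It was 0.24 with counts summed by label code and, in a comparison chosen after seeing the data, 3.39 without the 3 libraries rich in red cell markers. Tomm20, a presequence receptor, had 43.6, 21.2, 26.4 and 32.2 CPM across controls, against 23.4, 23.8, 23.4 and 44.6 CPM across mito-supplemented samples. Its relative Tomm20l was the only import gene that failed the filter, with 6, 1, 0 and 0 counts in controls and 0, 0, 0 and 1 in mito-supplemented samples.

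All 4 genes of the TIM23 channel that the rule reached had a fold change below 0. Timm21, a further gene of the channel listed under the older symbol 1700034H14Rik, had a log2 fold change of 0.78 ± 0.69 (SE). Of the 4 genes, Timm23, the channel, was highest per length at a mean of 3.24 CPM per kb, just above the 3.20 CPM per kb of Timm50. However, 52.1% of the 75-base stretches of Timm23 also occur in Gm10273 or other copies. Timm23 had 6.03, 4.92, 4.29 and 1.38 CPM across control replicates 1 to 4, against 3.74, 1.80, 2.77 and 5.49 CPM across mito-supplemented replicates 1 to 4. All mito-supplemented samples lay within the control range, and the log2 fold change was -0.28 ± 0.71 (SE). It ran from -0.56, with mito-supplemented replicate 4 dropped, to -0.023, with control replicate 1 dropped. Timm17a had 29.0, 5.95, 18.9 and 7.5003 CPM across controls, against 5.68, 8.03, 15.2 and 18.8 CPM across mito-supplemented samples. Timm17b, which can take its place in the channel, had 10.4, 4.92, 3.72 and 20.7 CPM across controls, against 1.65, 4.50, 4.85 and 3.89 CPM across mito-supplemented samples. Its highest values were in control replicates 4 and 1, and control replicates 2 and 3 lay within the range of the mito-supplemented samples or next to it. The log2 fold change of Timm17b was -1.41 ± 0.70 (SE), and edgeR's quasi-likelihood test gave an adjusted p value of 0.662. It was -0.74 without control replicate 4, -0.90 with library size only and -0.11 with limma-voom and sample quality weights. Per kb, Timm17b was between 0.600 and 8.45 times as high as Timm17a.

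In the motor, Hspa9, which encodes mortalin, the matrix chaperone that draws proteins inward, was the most abundant import gene in CPM and, at a mean of 53.4 CPM per kb, also per length. It had 208, 154, 125 and 186 CPM across control replicates 1 to 4, against 147, 171, 183 and 129 CPM across mito-supplemented replicates 1 to 4. All mito-supplemented samples lay within the control range, its SD of 0.26 in log2 CPM was the smallest of the import genes tested, and it made up between 18.9% and 26.2% of the summed import CPM of a library. The log2 fold change was -0.09 ± 0.29 (SE), and it had the other sign with library size only (0.19) and when control replicate 1 (0.048) or mito-supplemented replicate 4 (0.026) was dropped. Timm44, which anchors the motor to the channel, lay between 16.1 and 33.0 CPM. Pam16, a J-like protein that holds back the motor, lay between 3.49 and 15.99 CPM, highest in mito-supplemented replicate 4, although 34.2% of its 75-base stretches also occur in Gm9803 or Glis2.

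Dnajc15, the other J-protein of the pair with Dnajc19, had 38.4, 5.23, 3.95 and 10.1 CPM across control replicates 1 to 4, against 12.8, 29.9, 21.8 and 21.1 CPM across mito-supplemented replicates 1 to 4. Control replicate 1 was the highest library, and the other 3 controls lay below all mito-supplemented samples. Its log2 fold change was 0.56 ± 0.71 (SE), and edgeR's quasi-likelihood test gave an adjusted p value of 0.825. Without control replicate 1 the fold change was 1.77, and it was 0.29, 0.25 and 0.36 without control replicates 2 and 3 and mito-supplemented replicate 2. With limma-voom and sample quality weights, which gave control replicate 1 a weight of 0.231, the fold change was 2.21 with an adjusted p value of 0.0151, and among the 20 alternatives its adjusted values ran from 0.0151 to 0.993. Per kb, Dnajc15 was between 0.183 and 2.13 times as high as Dnajc19 in 7 libraries and 32.7 times in mito-supplemented replicate 4, where Dnajc19 had 6 counts.

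The nucleotide exchange factors Grpel1 and Grpel2, which free mortalin of ADP, differed in steadiness. Grpel1 had 21.5, 23.5, 15.4 and 12.4 CPM across control replicates 1 to 4, against 22.8, 13.4, 17.5 and 10.4 CPM across mito-supplemented replicates 1 to 4. Grpel2 had 69.0, 21.2, 19.4 and 9.28 CPM across controls, against 13.4, 15.9, 26.9 and 16.1 CPM across mito-supplemented samples. Control replicate 1 alone was above 30 CPM for Grpel2, and in it Grpel2 was 1.73 times as high per kb as Grpel1, against 0.318 to 0.835 times in the other 7 libraries. Both genes overlapped between the groups. Grpel1 overlaps exons of Tada2b on the opposite strand by 411 bases, so that its counts are uncertain.

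**Figure D3:**
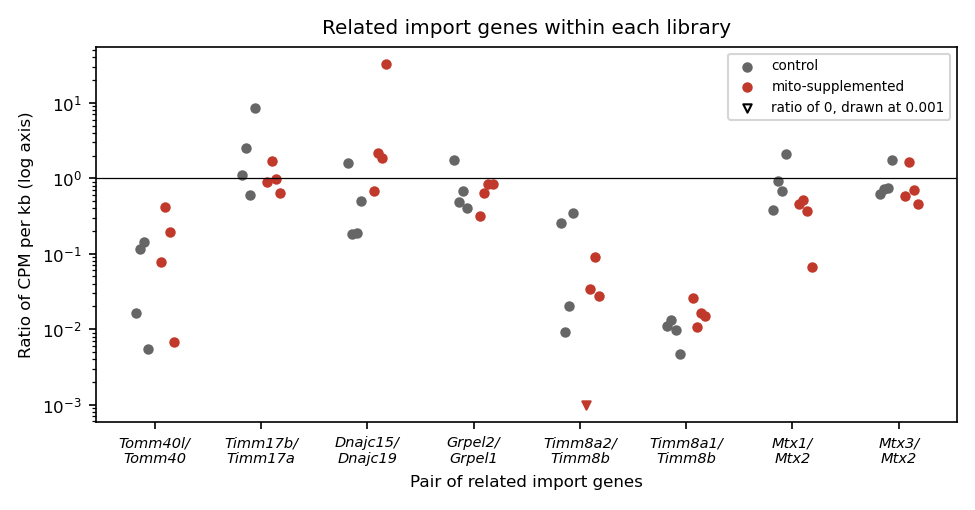
Ratio of CPM per kb between related import genes within each library (log axis, grey control, red mito-supplemented, n = 4 each), where 1 marks equal levels per length. Timm8a1, Timm8a2 and Tomm40l lie below their partners in every library, whereas the Timm17, Grpel, J-protein and metaxin pairs cross 1.

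With the genes that the rule reached, the small TIM chaperones were the only 1 of the 9 role groups whose summed level did not overlap between the groups. Their sum was 80.7, 44.5, 44.3 and 90.4 CPM across control replicates 1 to 4, against 41.0, 33.0, 39.2 and 36.7 CPM across mito-supplemented replicates 1 to 4. Control replicates 1 and 4 were far above the other 6 libraries, and control replicates 2 and 3 were only just above mito-supplemented replicate 1. The sum leaves out Timm10b, a further small TIM gene, which the table lists under the older symbol Fxc1. Timm10b had 14.3 CPM in mito-supplemented replicate 1, against 4.52 and 5.49 CPM in control replicates 2 and 3. With Timm10b added, the groups overlap. With library size only the groups overlapped, as the lowest control was 40.3 CPM and the highest mito-supplemented sample 53.7 CPM without TMM factors, and they also overlapped with library size without the rRNA genes. Timm8b was highest per length at 47.4 CPM per kb, and had 28.9, 24.3, 27.4 and 31.0 CPM across controls, against 22.6, 16.3, 17.2 and 28.5 CPM across mito-supplemented samples. Mito-supplemented replicate 4 lay within the control range and the other 3 below it, and the log2 fold change of -0.40 ± 0.35 (SE) was -0.11 with library size only. Timm9, which pairs with Timm10 in the chaperone that escorts carrier proteins, lay between 4.17 and 29.7 CPM. Timm10 had 2.87, 5.87, 2.40 and 4.34 CPM across controls, against 1.02, 3.39, 3.77 and 0.278 CPM across mito-supplemented samples, and both genes were lowest in mito-supplemented replicate 4, where Timm10 had 4 counts.

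Timm8a1 and Timm8a2 are close copies, and their reads could be taken for each other's only where the sequence is the same. Their coding sequences were identical at 77.6% of 294 bases, with a longest identical run of 20 bases, so that no 75-base stretch is shared between them. The first 150 coding bases of each, from GENCODE M21, are given here with the 42 bases that differ in capitals.
Timm8a1: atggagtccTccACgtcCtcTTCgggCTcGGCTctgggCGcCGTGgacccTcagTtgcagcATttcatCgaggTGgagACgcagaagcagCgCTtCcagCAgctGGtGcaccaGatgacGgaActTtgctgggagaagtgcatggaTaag
Timm8a2: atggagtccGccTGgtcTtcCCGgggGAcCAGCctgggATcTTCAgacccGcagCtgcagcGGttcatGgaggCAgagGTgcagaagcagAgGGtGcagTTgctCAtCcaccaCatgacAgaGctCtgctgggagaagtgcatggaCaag
The differences are spread over most of the stretch, apart from an identical run of 20 bases near its end. Timm8a2 (chromosome 14, 122034674 to 122038420) shares no 75-base stretch with any gene, whereas 39.9% of those of Timm8a1 (chromosome X, 134537256 to 134541865) also occur in the pseudogene Gm9797.

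Timm8a2 was the most variable import gene, with an SD of 2.38 in log2 CPM. It had 13.2, 0.396, 0.972 and 18.8 CPM across control replicates 1 to 4, against 0, 0.970, 2.77 and 1.39 CPM across mito-supplemented replicates 1 to 4. It was high in control replicates 1 and 4 alone, from 321 and 95 counts, and the other 6 libraries had between 0 and 61 counts. Its log2 fold change was -2.68 ± 1.44 (SE), with an unadjusted p value of 0.0911 in edgeR's quasi-likelihood test, and it was 0.19 with limma-voom and sample quality weights. Timm8a1 had 0.861, 0.872, 0.743 and 0.395 CPM across controls, against 1.60, 0.485, 0.771 and 1.18 CPM across mito-supplemented samples. Its groups overlapped, and it was the lowest in mean CPM of the import genes that passed the filter. Per kb, Timm8a1 reached between 0.00464 and 0.0259 of the level of Timm8b.

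Timm22, the channel for carrier proteins, had 8.66, 5.23, 3.20 and 1.97 CPM across control replicates 1 to 4, against 3.15, 8.52, 8.44 and 7.93 CPM across mito-supplemented replicates 1 to 4. Of the mito-supplemented samples, replicates 2 to 4 lay together near the highest control, and replicate 1 lay among the low controls. The log2 fold change was 0.55 ± 0.65 (SE), and dropping control replicate 1 gave 1.03, dropping control replicate 4 gave 0.32 and dropping mito-supplemented replicate 1 gave 0.83.

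In the outer membrane, Samm50, the core of the SAM complex, had 57.7, 33.5, 21.2 and 23.1 CPM across control replicates 1 to 4, against 17.4, 12.3, 19.4 and 23.6 CPM across mito-supplemented replicates 1 to 4. Only mito-supplemented replicate 4 reached the controls. Control replicate 1 was again the highest library, and the unadjusted p value was 0.0629 in edgeR's quasi-likelihood test. Of the metaxins, Mtx2 was highest per length at a mean of 9.60 CPM per kb, and had 47.4, 20.5, 23.6 and 14.4 CPM across controls, against 25.04, 15.7, 29.3 and 50.7 CPM across mito-supplemented samples. Its groups overlapped largely, and its log2 fold change of 0.19 ± 0.49 (SE) was -0.14 without mito-supplemented replicate 4. Mtx3 had 61.9, 31.2, 37.5 and 53.1 CPM across controls, against 30.8, 54.9, 43.4 and 49.6 CPM across mito-supplemented samples. Mtx1, described above as lower in every mito-supplemented library, was between 0.0676 and 2.10 times as high per kb as Mtx2, and the fold changes of the 3 metaxins did not share a direction.

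In oxidative folding, Chchd4, the oxidoreductase that traps cysteine-rich proteins, had 7.06, 7.45, 4.80 and 8.09 CPM across control replicates 1 to 4, against 15.8, 3.60, 6.81 and 15.5 CPM across mito-supplemented replicates 1 to 4. Mito-supplemented replicates 1 and 4 were the highest of the 8 libraries and replicate 2 the lowest, and the log2 fold change of 0.61 ± 0.58 (SE) was 0.37 without replicate 1 and 0.38 without replicate 4 of them. Gfer, which reoxidises it, ran from 0.395 CPM in control replicate 4, which was 2 counts, to 13.6 CPM in control replicate 1, and 17.9% of its 75-base stretches also occur in Dst. Of the presequence peptidase, Pmpca had 40.5, 69.5, 69.5 and 42.4 CPM across controls, against 65.0, 75.3, 45.7 and 58.8 CPM across mito-supplemented samples, and its mean was 16.7 CPM per kb, although its exons overlap those of Inpp5e on the opposite strand and 18.1% of its 75-base stretches also occur there. Its groups overlapped, with a log2 fold change of 0.14 ± 0.34 (SE) that ran from 0.030 to 0.28 when 1 library was dropped. Pmpcb, the catalytic subunit, lay between 15.8 and 33.6 CPM at a mean of 14.1 CPM per kb.

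**Figure D4:**
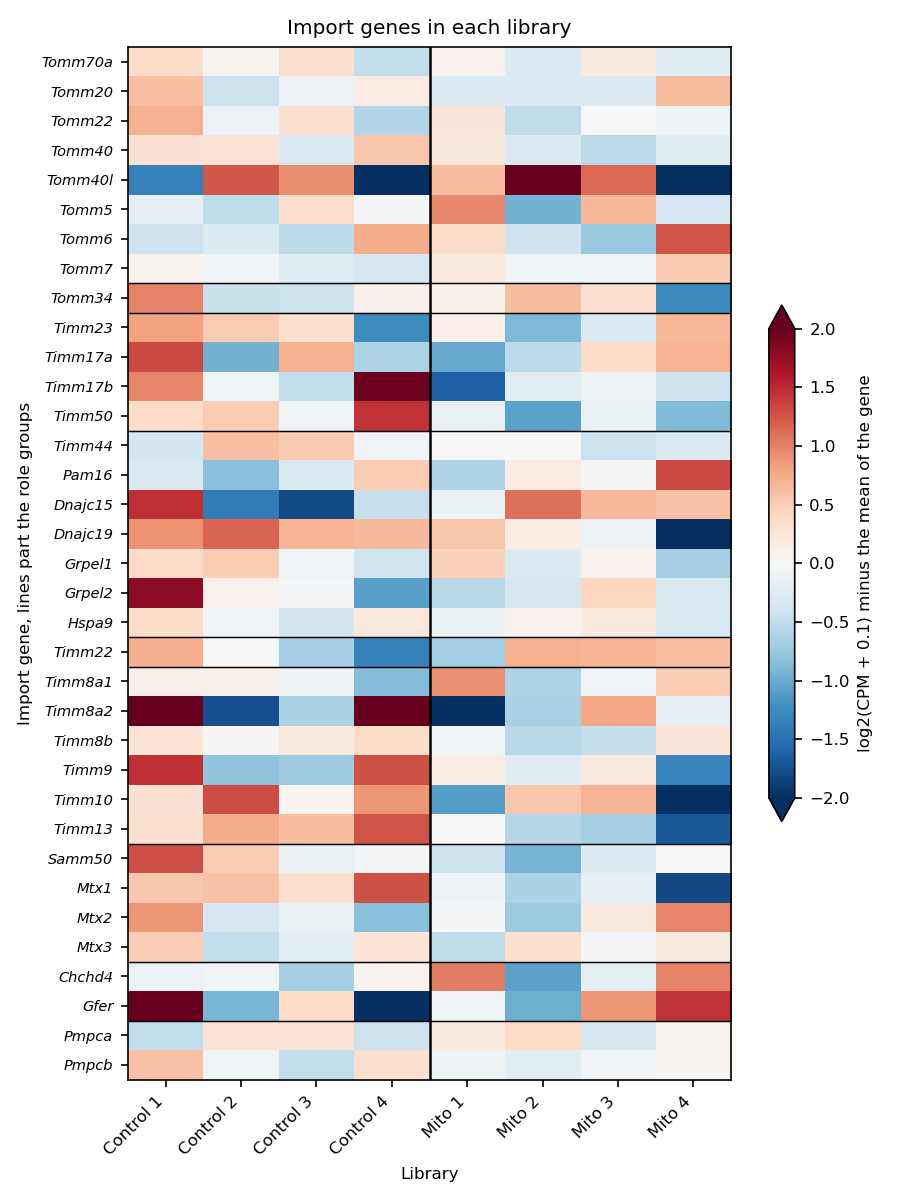
Level of each import gene tested in each library, as log2(CPM + 0.1) minus the mean of the gene, with red above and blue below it and black lines between role groups. Control replicate 1 holds the highest value of 14 of the 35 genes, and control replicate 4 and mito-supplemented replicate 4 hold the lowest of 9 and 8.

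Summed over all 36 genes, the import level was 1017, 675, 652 and 726 CPM across control replicates 1 to 4, against 655, 663, 700 and 683 CPM across mito-supplemented replicates 1 to 4. Control replicate 1 stood alone, 1.40 times as high as the next library, and the other 7 libraries lay within 1.11 times of each other. The control mean was 767 ± 169 CPM and the mito-supplemented mean 675 ± 20.3 CPM (± SD, n = 4), and the difference of -92.2 CPM was smaller than the SD of the controls. It was -9.20 CPM without control replicate 1 and 25.1 CPM with library size only. Control replicate 1 was highest for 14 of the 35 import genes tested and was also the library with the highest oocyte markers, and whether those move together within the groups was not tested.

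Other nuclear genes of mitochondria were set beside the import genes. The 76 genes of the mitochondrial ribosome summed to 1090, 782, 872 and 964 CPM across control replicates 1 to 4, against 837, 663, 718 and 922 CPM across mito-supplemented replicates 1 to 4, and the 42 subunit genes of complex I to 1015, 679, 720 and 756 CPM and 698, 554, 680 and 842 CPM. Control replicate 1 was highest for both. Over all 8 libraries the coefficient of variation of the sums was alike, at 16.9% for the import genes, 16.1% for the mitochondrial ribosome and 18.4% for complex I. Without control replicate 1 it was 3.93% for the import genes, 13.2% for the mitochondrial ribosome and 12.4% for complex I. The difference was not tested and rests on that step. Fold changes below 0 were found for 68.6% of the import genes tested, 70.7% of 75 mitochondrial ribosome genes, 77.5% of 40 complex I genes and 55.1% of all genes. The medians were -0.19, -0.29, -0.19 and -0.10 in the same order. The import share rested on 24 of 35 genes, which became 17 with library size only and 16 without control replicate 1. The unadjusted threshold in edgeR's quasi-likelihood test was passed by 0 mitochondrial ribosome genes and 1 complex I gene, which was lower, where 2.4% of all genes were lower and 5.31% higher. The groups did not overlap for 2 genes of the mitochondrial ribosome and 2 of complex I, all lower, where 2.03% of all genes did not overlap and were lower.

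**Figure D5:**
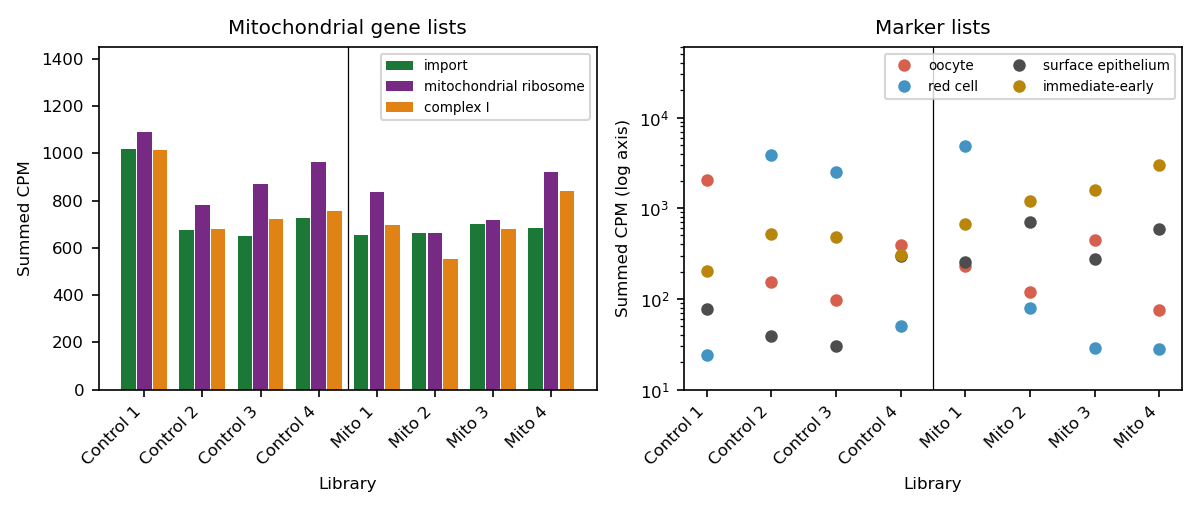
Left, summed CPM of the import, mitochondrial ribosome and complex I genes in each library. Right, summed CPM of 4 marker lists in the same libraries on a log axis, where control replicate 1 is highest for oocyte markers and control replicates 2 and 3 and mito-supplemented replicate 1 are highest for red cell markers.

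A list of 24 other genes of the pathway, which fold, cleave, insert or degrade imported proteins, was also examined. All 24 passed the filter, and 0 had an adjusted or an unadjusted p value under 0.05 in edgeR's quasi-likelihood test, where 0% and 7.71% of all genes had. The unadjusted count was also 0 in the likelihood ratio test (9.2% of all genes) and DESeq2 (10.9%). With limma-voom and sample quality weights there were 3 (12.5%), where 37.6% of all genes passed. For 0 of them did the groups not overlap, against 5.03% of all genes, and 19 had a fold change below 0 and 5 above 0, with a median of -0.25. Hspd1, the matrix chaperonin, had 255, 199, 127 and 130 CPM across control replicates 1 to 4, against 164, 125, 147 and 84.9 CPM across mito-supplemented replicates 1 to 4. Its partner Hspe1 had 46.4, 26.3, 21.2 and 21.3 CPM across controls, against 31.3, 16.1, 34.7 and 20.4 CPM across mito-supplemented samples. Both were highest in control replicate 1, and their groups overlapped.

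Oxa1l, which inserts proteins from the matrix side, had 17.1, 20.6, 37.8 and 46.8 CPM across control replicates 1 to 4, against 29.6, 40.6, 33.0 and 34.4 CPM across mito-supplemented replicates 1 to 4. It was lowest in control replicate 1, where 14 of the import genes were highest. Agk, a lipid kinase that is also a TIM22 subunit, had 7.22, 3.01, 4.00 and 1.97 CPM across controls, against 5.05, 10.4, 5.40 and 6.33 CPM across mito-supplemented samples, and its groups overlapped. Mipep, a peptidase that trims some proteins after presequence cleavage, had 66.4, 18.9, 15.3 and 15.8 CPM across controls, against 13.1, 17.3, 24.0 and 23.2 CPM across mito-supplemented samples, with control replicate 1 far above the rest.

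A further 4 genes whose current symbols start with Timm appear in the table under older symbols, which the rule does not reach. They are Fxc1, now Timm10b, 1700034H14Rik, now Timm21, 1810026J23Rik, now Timm29, and 4930455C21Rik, now Timmdc1, which encodes an assembly factor of complex I and no part of the import machinery. Fxc1 had 15.4, 4.52, 5.49 and 1.38 CPM across control replicates 1 to 4, against 14.3, 3.32, 4.49 and 3.82 CPM across mito-supplemented replicates 1 to 4, with control replicate 1 and mito-supplemented replicate 1 highest. The other 3 lay between 1.78 and 19.7 CPM. Log2 fold changes were 0.78 for 1700034H14Rik, and -0.06, -0.28 and -0.87 for Fxc1, 1810026J23Rik and 4930455C21Rik. None of these genes had groups that did not overlap, and their unadjusted p values in edgeR's quasi-likelihood test ran from 0.274 to 0.943.

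The start regions of the import genes were compared because nuclear genes for mitochondria often carry sites of the same factors. RefSeq windows on GRCm38.p6, from 250 bases before to 50 bases after the start, were found for 32 of the 36 genes, as 34 windows, and 3 motifs were searched on both strands. The ETS letters CCGGAAG were in 41.2% of these windows against 8.86% of 32851 windows of all genes, the letters of an NRF1 half-site, GCATGCGC, in 5.9% against 2.71%, and the YY1 letters AAGATGGCG in 8.8% against 1.4%. The 13 genes with the ETS letters included Tomm22, Timm23, Timm8b and Mtx1 to Mtx3. Of the 4 genes whose groups did not overlap, the matches of 3 are given here as 30-base stretches with the motif in capitals, and Dnajc19 had none in its window.
Timm13, NRF1 half-site, chr10:80901143-80901172: ttatattgtacGCATGCGCagcggggaggt
Mtx1, ETS in reverse complement, chr3:89213899-89213928: acgagaaggtgCTTCCGGgtcagagagcgt
Mtx1, YY1, chr3:89213877-89213906: gagagcgtacAAGATGGCGgcgcccatgga
Timm50, YY1, chr7:28312016-28312045: gcgtcagcgcAAGATGGCGgcctcggcggc
All 4 stretches are on the minus strand, and the motifs begin at -192, -10, 12 and 12 bases from the RefSeq start, in that order. The RefSeq start of Mtx1 lies within the longer GENCODE span given above. A match is a description of the letters and shows no binding, and the 3 genes did not share a motif beyond the YY1 letters of Mtx1 and Timm50.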

How the data were processed

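Per the submitters' processing notes, the authors trimmed 75-base single reads with Trim Galore 0.4.4, aligned them to mm10 (GRCm38) with STAR 2.5.3a, made the gene counts with featureCounts and compared groups with edgeR 3.20.9. The counts were taken here as deposited. Which annotation release was counted, whether strand was used and how multi-mapping reads were treated is not given in the sources used here, so counts of genes that share sequence or overlap are uncertain.

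Library totals were 17658559, 13917412, 18219362 and 10370045 in controls and 19760763, 13370911, 16116434 and 13276462 in mito-supplemented samples. Mito-supplemented was compared with control, 4 libraries each, in R 4.3.3 with edgeR 4.0.16 (TMM, filterByExpr, quasi-likelihood test), and Benjamini-Hochberg adjustment ran over all 13873 genes that passed the filter. Log2 CPM values were taken with a prior count of 2. Alternatives used the likelihood ratio test, DESeq2 1.42.0, limma 3.58.1 with sample quality weights, other normalization and filters, a replicate block, sums by label code and each library left out. An offset for GC content and length (mgcv 1.9.3) and a comparison without the 3 libraries with most red cell RNA were chosen after seeing the data. The code was tested on simulated data.

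Of the 36 import genes, Tomm20l failed the filter. Members and lists were chosen with earlier results of these data known. Genes given in every library were the highest per length in each role group, those whose groups did not overlap, those with an unadjusted p value under 0.05, the 3 with the largest and the 3 with the smallest SD of log2 CPM, related gene pairs, and the gene that failed the filter. Timm10 was given as the relative of Timm10b, a pair named in the plan, although Timm10b was reached only under its older symbol, Fxc1. Of the other pathway list, Hspd1, Hspe1, Oxa1l, Agk and Mipep were named by plan. Samm50 and the genes with older symbols were chosen after values were seen. Levels between genes were compared per kb of GENCODE M21 basic exons. Promoter windows came from RefSeq on GRCm38.p6. The control library that the study excluded was not analysed here.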

Additional observations from a re-analysis of the deposited data

Results flagged for a closer look

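In 120 groups of 4 libraries, each import gene, named pathway gene and summed list was searched for 1 library that stood far from the other 3 on the log2 scale. In 7 of the 120 groups a library stood apart, where about 1 in 20, or 6, would be found by chance.

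Tomm20 in mito-supplemented replicate 4 was at 5.48 log2 CPM, with the other 3 between 4.56 and 4.58. Dnajc19 in the same library was at -0.89, with the others between 2.94 and 3.62. Timm22 in mito-supplemented replicate 1 was at 1.71, with the others between 3.01 and 3.11. The summed other pathway genes in mito-supplemented replicate 1 were at 9.86, with the others between 9.56 and 9.59, and the summed immune markers in the same library were at 9.50, with the others between 3.10 and 3.96. In control replicate 1 the summed oxidative folding genes were at 4.37, with the others between 3.09 and 3.19, and Mipep was at 6.06, with the others between 3.94 and 4.25. All of these values were kept.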

How the results depend on the processing

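The number of import genes with an adjusted p value under 0.05 was 0 in the edgeR quasi-likelihood test and 2, Dnajc15 and Timm13, with limma-voom and sample quality weights (5.71%, against 21% of all genes). It was 0 in all other alternatives.

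The number at an unadjusted p value under 0.05 was 2 (5.71%, against 7.71% of all genes). The likelihood ratio test gave 3 (8.57%, against 9.2% of all genes), DESeq2 gave 5 (14.3% against 10.9%) and limma-voom gave 6 (17.1% against 37.6%). It was 0 with library size only (9.67% of all genes), 0 when every gene with at least 1 count in any library was kept (7.54%), and 0 when counts were summed by label code (7.5%). Leaving out 1 library gave 0 to 3. Of the controls, dropping replicate 1 gave 3 (7.67% of all genes), dropping replicate 2 gave 1 (5.55%), and dropping replicate 4 gave 1 (12.6%). Of the mito-supplemented samples, dropping replicate 1 gave 1 (14.1%), and dropping replicate 2, 3 or 4 gave 0 each (3.95%, 5.53% and 4.34%). The cause was not tested.

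With the replicate number as a block the unadjusted count was 0 import genes and 1 other pathway gene (4.17%), where 7.07% of all genes passed. Libraries with the same replicate number had deviations that correlated at -0.24, -0.19, -0.33 and 0.22, so the numbers do not pair the samples.

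The median log2 fold change of -0.19 was 0.030 with library size only, while the median of all genes moved from -0.10 to 0.17. Leaving out 1 library gave -0.29 (without control replicate 4) to 0.036 (without control replicate 1). The number of genes whose groups did not overlap was 4 (11.4%, against 5.03% of all genes), and 1 with library size only (2.86% against 6.83%). Leaving out 1 library gave 4 to 6, where dropping control replicate 3 gave 6 (17.1% against 7.43%) and dropping mito-supplemented replicate 4 also gave 6 (17.1% against 6.61%). Over all genes the share ran from 5.72% to 13.7% when 1 library was dropped.

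Among other pathway genes the unadjusted count was 0, and 3 with limma-voom (12.5%, against 37.6% of all genes). Leaving out 1 library gave 0 to 1, where dropping control replicate 2 gave 1 (4.17% against 5.55%) and dropping mito-supplemented replicate 1 also gave 1 (4.17% against 14.1%). The difference in summed import level was -92.2 CPM, 25.1 CPM with library size only, and -131 to -9.20 CPM when 1 library was left out. The difference in summed small TIM level of -27.5 CPM was -16.6 with library size only, -34.4 to -19.0 when 1 library was left out, and -47.4 on the scale of library size without the rRNA genes.

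Of 340 log2 fold changes of 17 genes, 328 kept their side of 0 and 12 did not. Tomm34 was -0.08, 0.65 with limma-voom and 0.092 with library size only, and leaving out 1 library gave -0.30 to 0.36. Hspa9 was -0.09, 0.30 with limma-voom and 0.19 with library size only, and leaving out 1 library gave -0.21 to 0.048. Pmpca was 0.14 and -0.19 with limma-voom, and Timm8a2 was -2.68 and 0.19 with limma-voom. Leaving out 1 library gave -0.39 to 0.030 for Tomm22, -0.14 to 0.65 for Mtx2, -0.56 to -0.023 for Timm23 and 0.030 to 0.28 for Pmpca. Timm23 was -0.74 with limma-voom. Timm8b was -0.40, -0.11 with library size only and -0.16 with counts summed by label code. Over all 20 alternatives the ranges were 0.16 to 1.03 for Chchd4, 0.32 to 1.03 for Timm22, -0.39 to 0.030 for Tomm22, 0.020 to 2.21 for Dnajc15, -1.66 to -0.66 for Timm50, -1.52 to -0.62 for Dnajc19, -1.67 to -0.87 for Mtx1 and -1.78 to -1.02 for Timm13. With limma-voom Timm13 was -1.32 (adjusted p 0.0446) and Dnajc15 was 2.21 (adjusted p 0.0151).

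Alternatives chosen after seeing the data were an offset for GC content and length, which gave 3 import genes at the unadjusted threshold (8.57%, against 8.24% of all genes), and leaving out the 3 libraries with most red cell RNA. The latter gave 10 import genes whose groups did not overlap, 9 lower (25.7%, against 14.2% of all genes) and 1 higher (2.86% against 15.4%), and 2 other pathway genes at the unadjusted threshold (8.33% against 10.8%).

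There were 4 libraries in each group, and control replicate 4 had few counts outside the rRNA genes. Marker lists differed between libraries, so cell make-up and RNA level per cell cannot be told apart. The groups differ in the superovulation, injection, embryo culture, vitrification and transfer behind the founders as well as in the added mitochondria. Counts of genes with shared sequence are uncertain.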
